A study of Mus musculus with 60 samples.

Results

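Secreted cytokines and chemokines that are often measured as part of a senescence-associated secretory phenotype were read in mouse fibroblasts, as 10 genes of the 56980 identifiers in each of the count tables. The members were taken by symbol, as the rows whose identifier maps to Cxcl1, Cxcl2, Cxcl5, Cxcl12, Ccl2, Ccl7, Il6, Csf1, Il33 or Gdf15, and all 10 were found in both tables. After a filter on low counts 9 members were tested in each table, because Il6 was too low in the reprogramming libraries and Cxcl2 in the inhibitor libraries.

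The secretory phenotype is the mixture of cytokines, chemokines, growth factors and proteases that cells release after lasting DNA damage or senescence, and its inflammatory part is known to be driven largely by the transcription factors NF-kB and C/EBP beta. CXCL1, CXCL2 and CXCL5 bind the receptor CXCR2 and draw neutrophils, CXCL12 binds CXCR4 and ACKR3 and holds stem cells and leukocytes in place, and CCL2 and CCL7 bind CCR2 and draw monocytes. IL-6 is a broad inflammatory cytokine, CSF1 keeps macrophages alive through CSF1R, IL-33 is a nuclear alarmin of barrier cells and fibroblasts that acts through the receptor ST2, and GDF15 is a stress cytokine of the TGFb superfamily that acts through GFRAL with RET.

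The study asked whether reprogramming, or inhibition of TGFb family receptors alone, can lessen DNA damage in fibroblasts with a defect of ERCC1, a subunit of a DNA repair nuclease. It holds 60 RNA libraries in 20 groups of 3, in a reprogramming table of 36 libraries and an inhibitor table of 24. In the reprogramming table, D/KO cells (4FJ_ERCC1 (d/-), male, 8 weeks) and WT cells (4FJ (+/-) OCT4-GFP, female, 22 weeks) came from tail tip. The study describes Col1a1-tetO-OKSM with ROSA26-M2-rtTA for the D/KO line, and a cassette of Oct4, Sox2, Klf4 and c-Myc at Col1a1 for the WT line. Doxycycline (2 µg/ml) was used to turn on these reprogramming factors in both lines. Cells were read at days 0, 2 and 4 of doxycycline, alone or with VC, which is ascorbic acid (50 µg/ml) and CHIR99021 (3 µM), an activator of Wnt signaling through GSK3. In the inhibitor table, D/KO cells (ERCC1 (d/-), female, 4 weeks, tail tip) were untreated or held for 3 days with Repsox or Vactosertib at 0.1 µM, or DMH-1 or A83-01 at 1.0 µM, doses that the study states for its methylation assay of these agents. The untreated WT cells there were ERCC1 (+/+), female, 14 weeks, from tail tip or, as a separate group, from skin, and a last group labelled WT 4F TGFB came from tail tip of the 4FJ (+/-) OCT4-GFP line, female, 22 weeks. RNA was read from bulk cultures of low passage, and since the labels do not say whether the libraries of a group came from separate cultures or animals, p-values measure only the spread between these libraries, which may be technical. Genotype, sex, age and line cannot be told apart in a contrast of D/KO with WT in the reprogramming table, and genotype, age and line cannot in the inhibitor table, where both were female. A lower level in bulk RNA cannot separate fewer cells of a type from less RNA per cell. No group was held to day 2 or 4 without doxycycline, so time in culture cannot be told apart from doxycycline and the factors. The sources used do not state how long the day 0 cells had VC.

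Library totals were 16538374 to 18484951 counts in the reprogramming table and 17102639 to 30599138 in the inhibitor table. Ercc1 itself was at 8.04 to 18.6 counts scaled to library size (CPM) in the reprogramming D/KO libraries and 16.9 to 29.1 CPM in the WT libraries, and at 13.2 to 23.5 CPM and 13.3 to 47.8 CPM in the inhibitor table. D/KO lay wholly below WT in 5 of the 6 matched groups of the reprogramming table and overlapped it at day 0 without VC, and untreated D/KO and WT tail tip cells of the inhibitor table overlapped. All 8 fibroblast markers were detected, and their summed level was 24294 to 242774 CPM in the reprogramming D/KO libraries and 39000 to 162452 CPM in the WT libraries. Macrophage and leukocyte markers summed to 9.58 to 21.3 CPM in the reprogramming D/KO libraries and 50.0 to 154 CPM in the WT libraries, mostly Lyz2, with the T cell marker Cd3e at 0 in every group mean. Endothelial markers summed to 199 to 730 CPM in D/KO and 4.73 to 116 CPM in WT, mostly Tek, and keratinocyte markers to 2.12 to 431 CPM in D/KO and 3.81 to 16.9 CPM in WT. The part of these other cell type markers in the results was not tested.

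Several members lie beside each other in the genome (GRCm39). Cxcl5 (chr5:90907219-90909483), Cxcl1 (chr5:91039100-91040974) and Cxcl2 (chr5:91051730-91053797) lie on the plus strand of chromosome 5. Cxcl1 and Cxcl2 are 10756 bases apart with 0 other protein-coding genes between them, while 129617 bases and 4 protein-coding genes (Ppbp, Pf4, Cxcl3 and Cxcl15) separate Cxcl5 from Cxcl1. Ccl2 (chr11:81926397-81928279) and Ccl7 (chr11:81936538-81938351) are neighbours on chromosome 11, 8259 bases apart. Cxcl12 lies at chr6:117145496-117158328, Il6 at chr5:30218112-30224979, Csf1 at chr3:107648364-107667785, Il33 at chr19:29902514-29938118 and Gdf15 at chr8:71082043-71085106. Counts are of whole genes over their exons. An annotated gene on the opposite strand overlaps Cxcl5, Il6, Csf1, Il33 and Gdf15, and with the strand setting of the counting not stated, reads of such a partner cannot be told apart from those of the member.

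The promoters of Cxcl1, Cxcl2 and Il6 are shown because the letters of a short NF-kB element were found in each, and that of Cxcl12 because it rose with the inhibitors where Cxcl1 fell. The windows are the 120 bases before the transcription start, 5′ to 3′ on the gene's strand, from RefSeq on GRCm38.p6, and capitals mark GGGA, any 4 bases and CC, or on the other strand GG, any 4 bases and TCCC, with overlapping matches joined. Cxcl1 (chr5:90891125-90891244), Cxcl2 (chr5:90903779-90903898), Il6 (chr5:30012994-30013113) and Cxcl12 (chr6:117168415-117168534) are all on the plus strand.
Cxcl1: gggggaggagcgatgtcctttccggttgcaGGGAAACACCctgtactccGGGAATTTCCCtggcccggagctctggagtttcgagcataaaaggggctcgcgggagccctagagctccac
Cxcl2: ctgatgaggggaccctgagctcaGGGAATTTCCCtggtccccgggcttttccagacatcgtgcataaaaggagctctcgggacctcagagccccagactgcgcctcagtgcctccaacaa
Il6: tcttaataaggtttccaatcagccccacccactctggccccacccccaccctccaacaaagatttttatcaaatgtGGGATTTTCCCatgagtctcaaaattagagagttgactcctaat
Cxcl12: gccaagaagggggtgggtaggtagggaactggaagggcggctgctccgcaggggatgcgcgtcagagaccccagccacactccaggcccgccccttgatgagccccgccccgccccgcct

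Cxcl1 and Cxcl2 hold the same letters GGGAATTTCCC, from 71 bases before the start in Cxcl1 and from 97 in Cxcl2, and Cxcl1 has a second match from 90 bases before it. Over the 250 bases before the start, 7 of the 10 members had a window in the RefSeq table, and Cxcl5, Ccl2 and Ccl7 were not scanned. The NF-kB letters were found in 5 of them (Cxcl1, Cxcl2, Il6, Csf1 and Gdf15), beside 17.6% of all 32851 promoter windows. Members are counted here as genes, while the shares count windows. The 7 members have 9 windows, and Gdf15 matched only in its window 2. The letters TGATGNAA, read on both strands and written for an ATF4 element, were in 0 members and 3.45% of all windows, and TATAAA, read on both strands, was in 1 member, Il33, and 12.4% of windows. A match here is a description of the letters and not a bound site. With A83-01 in D/KO cells, Gdf15 and Csf1, which hold the NF-kB letters, were called higher, and Il33, which does not, lower.

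Levels of different genes were compared per kilobase of exon. In WT cells at day 0, Cxcl5 had the highest level at 383 CPM per kilobase, followed by Ccl7 at 269, Csf1 at 263, Cxcl12 at 143, Ccl2 at 91.7 and Cxcl1 at 47.9 CPM per kilobase. Gdf15 was at 4.91, Il33 at 0.92, Cxcl2 at 0.64 and Il6 at 0.15 CPM per kilobase, so the canonical cytokine Il6 was the lowest of the 10. Its counts in the 36 reprogramming libraries ran from 0 to 12, and it entered no test in the filtered fit there. With no filter on low counts it passed in none of the comparisons of that table, the lowest adjusted p being 0.0617.

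**Figure D1:**
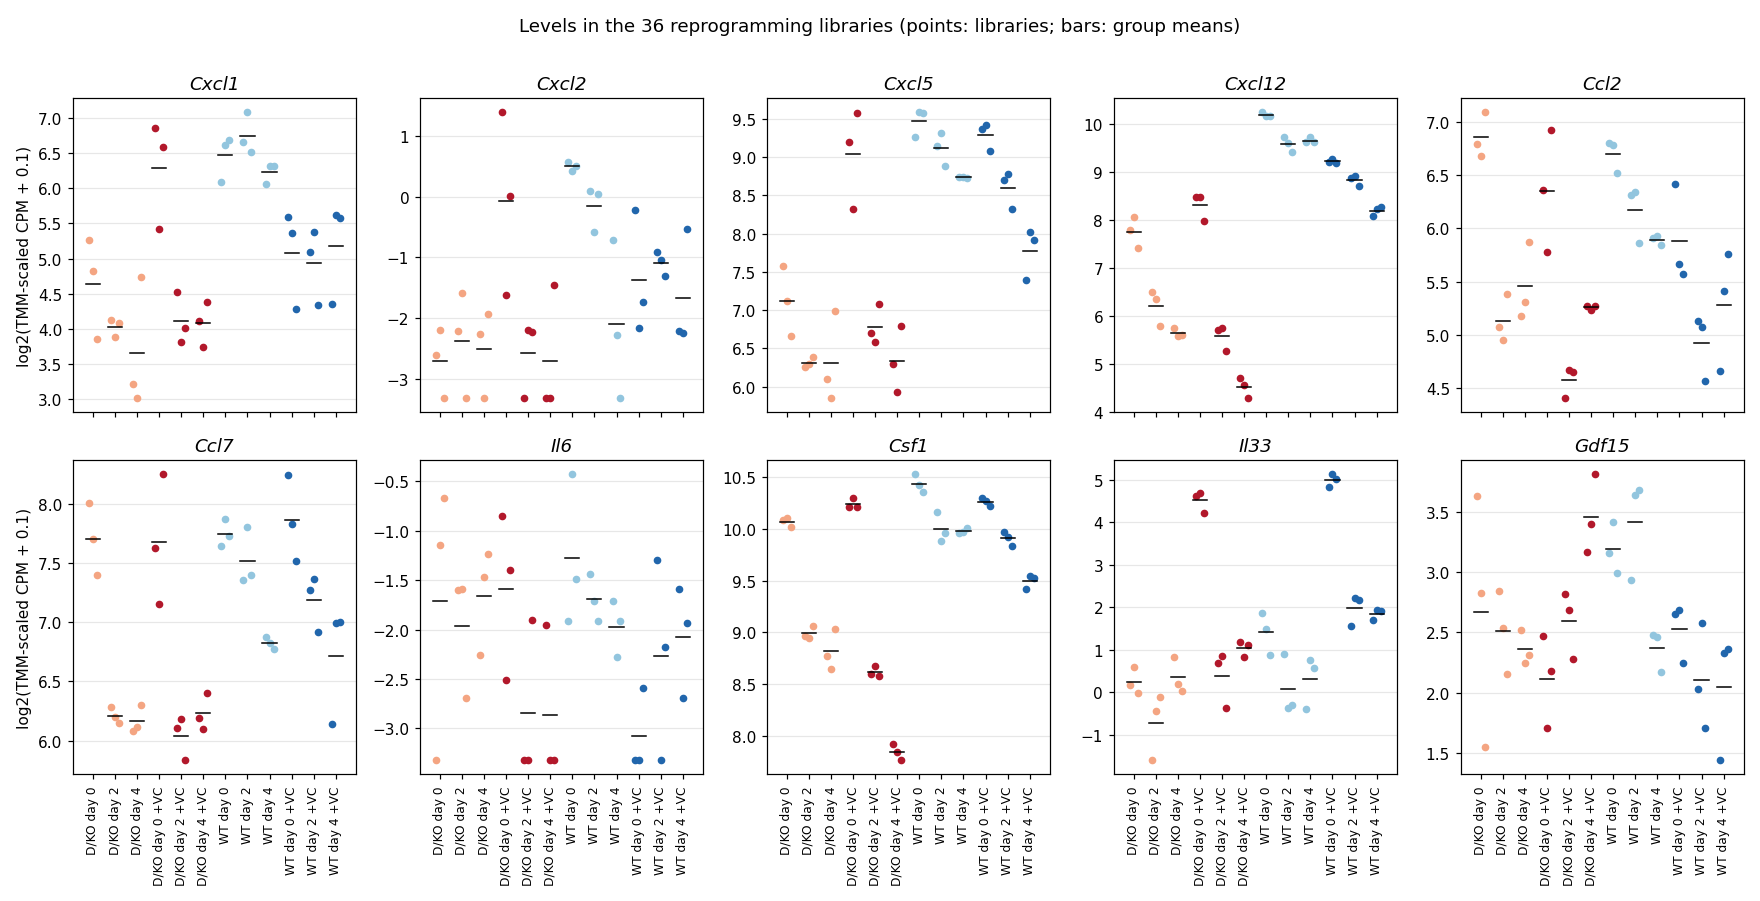
Level of each member in the 36 reprogramming libraries, as log2 of TMM-scaled CPM plus 0.1, in 12 groups by line (D/KO in red, WT in blue), day of doxycycline and VC (darker), with a point for each library and a bar for the mean on this scale. Cxcl12 in D/KO lies between 19.3 and 25.9 CPM at day 4 plus VC and between 252 and 358 CPM at day 0 plus VC, and Il33 is high in both lines only in the day 0 libraries with VC.

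In D/KO cells most of the secretory genes were lower at day 4 plus VC than at day 0 plus VC, and Gdf15 was higher. At day 4 plus VC against day 0 plus VC, 8 of the 9 members tested fell and 1 rose, where 26.2% of the 15832 genes tested fell and 27.9% rose. The median log2 change was -2.40 over the members and 0.01 over all genes. In D/KO cells without VC at day 4, 5 members fell and 0 rose, where 18.7% and 18.3% of genes did so, with a median of -0.88 over the members. At day 2, 5 members fell and 0 rose without VC, where 13.2% and 14.3% of genes did so, and 8 fell and 0 rose with VC, where 23.6% and 23.8% did so. All contrasts of a line without VC share its 3 day 0 libraries, and those with VC share its 3 libraries of day 0 plus VC.

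WT cells also had more members lower than higher. In WT cells 8 members fell and 0 rose at day 4 without VC, where 12.8% of genes fell and 11.7% rose, and 6 fell and 0 rose at day 4 plus VC, where 22% fell and 22.7% rose. The median log2 change of the members was -0.81 and -0.77. From WT day 0 plus VC to day 4 plus VC the fibroblast marker sum went from 148395 to 162452 CPM to 51913 to 61385 CPM, the endothelial sum from 4.73 to 7.08 CPM to 98.1 to 116 CPM, with 1 of 6 markers higher and 1 lower, and 3 of 5 keratinocyte markers tested were higher. At day 2 the WT cells had 3 members lower and 0 higher without VC, where 4.3% of genes were lower and 6.26% higher, and 6 lower and 0 higher with VC, where 13.7% were lower and 13.8% higher. Each of the 6 fits of WT day 4 that left out 1 library called 5 members in place of 8. Gdf15 was lost in 6 of them, Cxcl2 and Cxcl5 in 5 each, and Il33 in 2, without WT day 0 replicate 1 or WT day 4 replicate 1. At WT day 2 without replicate 3 of that day 1 member was called in place of 3, and at WT day 2 plus VC without replicate 3 of that day, or without WT day 0 plus VC replicate 1, 3 were called in place of 6.

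Of the CXCR2 ligands, Cxcl5 had the highest level per kilobase in WT cells at day 0. In D/KO cells Cxcl5 was at 190.1, 139 and 101 CPM at day 0, at 76.1, 78.3 and 83.4 CPM at day 2 and at 68.4, 57.5 and 127 CPM at day 4. With VC it was at 585, 321 and 766 CPM at day 0, at 104, 95.6 and 135 CPM at day 2 and at 78.3, 60.8 and 110.5 CPM at day 4. The day 0 libraries with VC stood above all other D/KO libraries of that table, and the day 2 libraries overlapped those of day 4 in either medium. Cxcl5 fell 6.70-fold at day 4 plus VC (log2 change -2.74, SE 0.26, adjusted p = 4.28e-11 by edgeR's quasi-likelihood test) and 1.70-fold at day 4 without VC (log2 change -0.77, SE 0.25, adjusted p = 0.0146). The smaller fall was lost without D/KO day 0 replicate 1 (adjusted p = 0.148) or without D/KO day 4 replicate 1 or 2 (0.0859 and 0.115), and also with library totals in place of TMM scaling (0.0798) and in a fit of only the libraries compared (0.0591). In WT cells Cxcl5 was at 612, 769 and 761 CPM at day 0, and it fell 2.82-fold at day 4 plus VC to 168, 259.9 and 240.5 CPM from 661, 682 and 539.8 CPM (adjusted p = 7.84e-06).

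Cxcl1 fell in D/KO cells with VC, and without VC its call turned on single libraries. It was at 38.4, 28.1 and 14.4 CPM in D/KO at day 0 and at 9.23, 7.99 and 26.6 CPM at day 4, which overlap, and the log2 change of -0.88 (SE 0.39) did not pass (adjusted p = 0.0732). It did pass without D/KO day 4 replicate 3 (-1.64, adjusted p = 0.00155) or D/KO day 0 replicate 3 (-1.19, adjusted p = 0.0204). With no filter on low counts it passed too (adjusted p = 2.51e-09). There the log2 change was again -0.88 and only the fitted SE was smaller, at 0.14, so that p-value reflects the fit and not less overlap. With VC it was at 116, 42.9 and 95.9 CPM at day 0 and at 17.3, 13.3 and 20.8 CPM at day 4, with no overlap, and it fell 4.96-fold (log2 change -2.31, SE 0.39, adjusted p = 4.06e-06). In WT cells Cxcl1 was at 68.1, 98.3 and 103 CPM at day 0 and at 66.5, 79.4 and 79.2 CPM at day 4, and it passed in none of the 4 contrasts of WT day 2 or 4 with day 0 in the same medium in the fit of 36 libraries. At WT day 4 it passed as lower in a fit of only the libraries compared (-0.25, adjusted p = 0.0436). Cxcl2 was near the limit of detection. Its D/KO counts were 39, 3 and 13 at day 0 plus VC and 0 to 5 in the other 15 D/KO libraries of that table, and its fall at day 4 plus VC (adjusted p = 0.00217) did not hold without D/KO day 0 plus VC replicate 1 (adjusted p = 0.0559).

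Cxcl12, the CXCR4 ligand, fell in both lines and in either medium. In D/KO cells it was at 221, 269 and 169.7 CPM at day 0, at 89.6, 81.5 and 54.8 CPM at day 2 and at 53.4, 47.6 and 48.1 CPM at day 4. With VC it was at 354, 358 and 252 CPM at day 0, at 51.9, 53.4 and 38.4 CPM at day 2 and at 25.9, 23.5 and 19.3 CPM at day 4. The days did not overlap with VC, and without VC the day 0 libraries stood above all later ones. Cxcl12 fell 14.0-fold at day 4 plus VC (log2 change -3.81, SE 0.17, adjusted p = 4.60e-20) and 4.42-fold without VC (log2 change -2.15, SE 0.16, adjusted p = 1.06e-13). In WT cells it was at 1215, 1147 and 1155 CPM at day 0 and at 786, 846 and 789.6 CPM at day 4, a 1.45-fold fall (adjusted p = 0.00701), and with VC at 595, 618 and 583 CPM at day 0 and at 270.3, 299.9 and 307 CPM at day 4, a 2.05-fold fall (adjusted p = 7.03e-07). The falls of Cxcl12 in WT at day 2 were less firm. Plus VC the call was lost in all 6 fits with 1 library left out, and with library totals (-0.26, adjusted p = 0.208). Without VC it was lost without WT day 2 replicate 3 (adjusted p = 0.0506). All WT libraries were above the D/KO libraries of the same day and medium. In the order of its 12 group means, 3 of the 11 pairs of neighbours had overlapping libraries, where the other members had 6 to 11.

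The CCR2 ligands fell by day 2 in D/KO cells, and without VC their day 4 libraries overlapped those of day 2. Ccl2 was at 111, 102 and 136 CPM in D/KO at day 0, at 33.5, 30.9 and 41.6 CPM at day 2 and at 36.2, 39.6 and 58.6 CPM at day 4. It fell 3.29-fold at day 2 (log2 change -1.72, SE 0.24, adjusted p = 3.68e-07) and 2.60-fold at day 4 (-1.38, SE 0.23, adjusted p = 8.04e-06). Ccl7 was at 258, 209 and 169 CPM at day 0, at 77.9, 73.2 and 70.9 CPM at day 2 and at 67.5, 69.1 and 78.9 CPM at day 4. Neither gene's day 2 or day 4 libraries overlapped those of day 0. Ccl7 fell 2.86-fold at day 2 (adjusted p = 3.52e-07) and 2.95-fold at day 4 (adjusted p = 1.10e-07). With VC the falls at day 4 were 2.25-fold for Ccl2 (adjusted p = 6.11e-05) and 2.85-fold for Ccl7 (adjusted p = 1.10e-07). In WT cells Ccl2 fell 1.76-fold (adjusted p = 0.00763) and Ccl7 1.90-fold (adjusted p = 0.000724) at day 4 without VC, from 112, 109.7 and 91.9 CPM and from 199.9, 235 and 212 CPM. At day 4 plus VC in WT, Ccl7 fell 2.19-fold (adjusted p = 2.31e-05), while the 1.5-fold fall of Ccl2 (adjusted p = 0.0382) was lost without WT day 0 plus VC replicate 1 (adjusted p = 0.403) or WT day 4 plus VC replicate 1 (0.282) or 2 (0.0660), by DESeq2 (0.0527) and with library totals, where the log2 change was -0.30 (adjusted p = 0.324).

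Csf1, the macrophage growth factor, fell in both lines and in either medium. In D/KO cells it was at 1089, 1102 and 1037 CPM at day 0, at 500.1, 493 and 535 CPM at day 2 and at 438, 400.4 and 525 CPM at day 4. With VC it went from 1188, 1261 and 1186 CPM at day 0 to 386, 409.6 and 383 CPM at day 2 and 243, 229.9 and 217 CPM at day 4. No library of a later day overlapped day 0, and with VC the 3 days did not overlap. Csf1 fell 5.27-fold at day 4 plus VC (log2 change -2.40, SE 0.09, adjusted p = 1.38e-21) and 2.37-fold at day 4 without VC (-1.24, SE 0.09, adjusted p = 9.64e-14). In WT cells it was at 1481, 1376 and 1316 CPM at day 0 and at 996, 1006 and 1034 CPM at day 4, a 1.37-fold fall (adjusted p = 0.00019), and it fell 1.70-fold at day 4 plus VC, to 686, 748 and 739 CPM (adjusted p = 1.03e-08).

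Il33 was at 0.230 to 4.56 CPM in every reprogramming library outside the day 0 groups with VC. In D/KO cells it was at 1.03, 1.41 and 0.884 CPM at day 0, at 24.6, 25.8 and 18.5 CPM at day 0 plus VC and at 2.17, 1.67 and 2.05 CPM at day 4 plus VC. WT libraries of Il33 were at 3.54, 2.69 and 1.74 CPM, at 28.2, 35.0 and 32.3 CPM and at 3.14, 3.73 and 3.66 CPM in the same groups. The day 0 libraries with VC stood apart from all the others in both lines. Against them Il33 fell 11.6-fold in D/KO (log2 change -3.54, SE 0.30, adjusted p = 2.03e-12) and 9.05-fold in WT (-3.18, SE 0.29, adjusted p = 1.82e-11) at day 4 plus VC.

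Gdf15 rose in D/KO cells at day 4 of doxycycline with VC. Its libraries were at 5.44, 3.16 and 4.42 CPM in D/KO at day 0 plus VC and at 8.88, 10.5 and 14.0 CPM at day 4 plus VC, with no overlap, a 2.54-fold rise (log2 change 1.35, SE 0.32, adjusted p = 0.000552). D/KO cells at day 0 without VC ranged from 2.83 to 12.3 CPM, which overlaps the day 4 libraries with VC. Without D/KO day 0 replicate 3, the lowest of them, Gdf15 also passed as lower at D/KO day 4 without VC (-0.93, adjusted p = 0.0105) and with VC alone (-1.14, adjusted p = 0.00393). In WT cells Gdf15 was at 6.19, 6.33 and 4.65 CPM at day 0 plus VC and at 2.62, 4.94 and 5.06 CPM at day 4 plus VC, and the log2 change of -0.44 (SE 0.33) did not pass (adjusted p = 0.283).

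The baseline decides part of this pattern. Set against D/KO day 0 without VC, 5 members were called at D/KO day 4 plus VC in place of 9, all lower, where 25.5% of genes were lower and 26.6% higher with this baseline. Cxcl12 (log2 change -3.26), Csf1 (-2.23), Ccl2 (-1.60), Ccl7 (-1.49) and Cxcl5 (-0.78, adjusted p = 0.00874) fell, while Cxcl1 (-0.65, adjusted p = 0.158), Gdf15 (0.60, adjusted p = 0.0997), Il33 (0.82, adjusted p = 0.0602) and Cxcl2 (0.51, adjusted p = 0.796) did not pass. In WT cells the same baseline gave 8 members lower at day 4 plus VC in place of 6, where 18.9% of genes were lower and 20.3% higher, with Cxcl1 (-1.20, adjusted p = 0.00836), Gdf15 (-1.11, adjusted p = 0.00518) and Cxcl2 (adjusted p = 0.0361) now passing and Il33 (0.41) not. At D/KO day 4 plus VC the fibroblast markers also moved, with 7 of 8 lower and 1 higher, and of 5 keratinocyte markers tested 3 were higher and 1 lower. From D/KO day 0 plus VC to day 4 plus VC the endothelial sum went from 224 to 266 CPM to 383 to 515 CPM. The skeletal muscle sum went from 42.3 to 58.3 CPM to 3.70 to 5.40 CPM, and the macrophage and leukocyte sum from 14.4 to 15.6 CPM to 9.58 to 11.4 CPM. Without VC the fibroblast marker sum was 70312 to 110851 CPM at D/KO day 0 and 28549 to 30302 CPM at day 4, and the keratinocyte sum 2.12 to 3.35 CPM and 43.1 to 58.7 CPM.

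The split of all calls into higher and lower moved by over 10 percentage points when library totals replaced TMM scaling, while no called member changed direction. In D/KO cells the share of calls that were higher went from 52.0% to 67.5% at day 2, from 50.2% to 71.2% at day 2 plus VC, from 49.4% to 67.6% at day 4 and from 51.6% to 74.4% at day 4 plus VC. For WT the share went from 50.3% to 68.1% at day 2 plus VC and from 50.8% to 75.7% at day 4 plus VC. With VC alone it went from 46.4% to 22.9% in D/KO and from 51.2% to 17.1% in WT, and for D/KO against WT at day 0 from 51.2% to 30.3%. For the differences between lines it went from 50.8% to 73.9% at day 4, from 47.4% to 58.1% at day 4 plus VC and from 45.3% to 61.8% with VC at day 0. For the inhibitors it went from 53.0% to 69.8% with Repsox, from 53.5% to 70.4% with Vactosertib, from 61.1% to 74.4% with DMH-1, from 50.3% to 67.8% with A83-01 and from 47.1% to 60.7% between A83-01 and DMH-1, and for skin against tail tip from 52.9% to 37.7%.

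VC alone, without doxycycline, raised 5 of the 9 members in D/KO cells and lowered 0, where 12.1% of genes rose and 14% fell. In WT cells 1 rose and 3 fell, where 15.1% and 14.4% of genes did so. These counts depend on the setting, since library totals in place of TMM scaling gave 4 higher and 1 lower in D/KO, with Gdf15 lower (log2 change -0.91, adjusted p = 0.0343) and Cxcl12 lost (0.0646), and 1 higher and 6 lower in WT. With no filter on low counts they were 5 higher and 2 lower (Ccl2 and Gdf15) in D/KO. Il33 rose in both lines, 20.6-fold in D/KO (log2 change 4.36, SE 0.33, adjusted p = 5.85e-13) and 12.0-fold in WT (3.59, SE 0.29, adjusted p = 5.99e-12). Cxcl1 rose 3.16-fold in D/KO (log2 change 1.66, SE 0.37, adjusted p = 0.000853) and fell 2.48-fold in WT (-1.31, SE 0.37, adjusted p = 0.00607), where it was at 68.1, 98.3 and 103 CPM without VC and at 47.9, 41.0 and 19.5 CPM with it. Cxcl5 rose 3.89-fold in D/KO (adjusted p = 1.87e-07), and in WT its libraries overlapped, with a log2 change of -0.19 (SE 0.25, adjusted p = 0.613). Cxcl12 rose 1.46-fold in D/KO (log2 change 0.55, adjusted p = 0.0059) and fell in WT (log2 change -0.97, SE 0.15, adjusted p = 4.42e-06).

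The D/KO response to VC differed from the WT response in 4 members, all of them with the more positive change in D/KO, where 6.93% of genes were higher and 8.35% lower. This contrast was added after the day 0 values were seen. The difference was 2.97 for Cxcl1 (log2, SE 0.53, adjusted p = 0.000144), 2.14 for Cxcl5 (SE 0.35, adjusted p = 5.38e-05) and 1.52 for Cxcl12 (SE 0.21, adjusted p = 4.63e-06). Cxcl2, with counts of 1, 2 and 0 without VC in D/KO and of 25, 23 and 26 in WT, was the last of them (adjusted p = 0.00248). Il33 differed by 0.78 (SE 0.44, adjusted p = 0.246) and did not pass, with a 95% interval from -0.08 to 1.63.

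**Figure D2:**
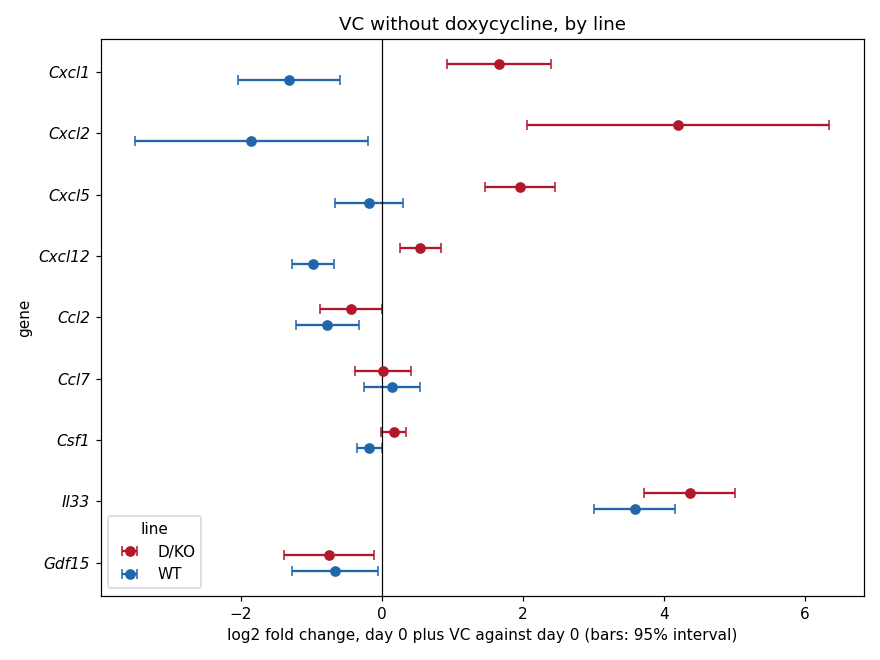
Log2 fold change of the 9 tested members between day 0 plus VC and day 0, in D/KO (red) and WT (blue) cells of 3 libraries a group, with 95% intervals from the edgeR fit. Il33 is far above 0 in both lines, and the intervals of Cxcl1, Cxcl2, Cxcl5 and Cxcl12 in D/KO lie above those in WT.

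Limits apply to the smaller of these calls. Without D/KO day 0 replicate 3 the rise of Cxcl12 in D/KO was 0.39 (adjusted p = 0.0744), and without D/KO day 0 plus VC replicate 1 that of Cxcl2 lost its call (adjusted p = 0.0720). Ccl2 fell 1.71-fold in WT (adjusted p = 0.00918), a call that was lost without WT day 0 plus VC replicate 2 (adjusted p = 0.0541) or 3 (0.0765), and the fall of Cxcl1 in WT was lost without WT day 0 plus VC replicate 3 (0.0633). Ccl2 in D/KO, at -0.44, passed as lower without D/KO day 0 plus VC replicate 3 (-0.77, adjusted p = 0.0177), and Cxcl2 in WT passed as lower without WT day 0 plus VC replicate 1 (adjusted p = 0.0430). Cxcl2 in WT was also lower with library totals (0.0428) and in a fit of only the libraries compared (0.0157). Gdf15 in WT passed as lower with library totals (0.0168), with no filter on low counts (0.0184) and in a fit of only the libraries compared (0.00933). With VC alone in D/KO cells, 6 of 8 fibroblast markers rose and 1 fell, and all 6 endothelial markers fell. In WT cells 5 of 8 fibroblast markers rose and 0 fell, with their sum going from 46279.6 to 47704 CPM without VC to 148395 to 162452 CPM with it, and 1 of 6 endothelial markers fell, their sum going from 14.7 to 17.3 CPM to 4.73 to 7.08 CPM.

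Before doxycycline or VC, D/KO cells of the reprogramming table were lower than WT cells in 6 members and higher in 0, where 21.1% of genes were lower and 22.1% higher. Cxcl12 was 5.33-fold lower (log2 difference -2.41, SE 0.16, adjusted p = 5.29e-15), Cxcl5 4.98-fold (-2.32, SE 0.26, adjusted p = 4.14e-09) and Cxcl1 3.34-fold (-1.74, SE 0.37, adjusted p = 0.000279). Il33 was 2.37-fold lower (adjusted p = 0.0048), Csf1 1.29-fold lower (adjusted p = 0.00107), and Cxcl2 was also lower (adjusted p = 0.00151). Ccl2 (log2 difference 0.16, 95% interval -0.29 to 0.60) and Ccl7 (-0.02, -0.42 to 0.37) did not pass, and their libraries overlapped between the lines. Gdf15 passed as lower in D/KO (-0.89, adjusted p = 0.0231) without D/KO day 0 replicate 1.

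The change at day 4 itself was tested between the lines. Without VC it differed in 2 members, both lower in D/KO, where 7.04% of genes were lower and 7.27% higher. Cxcl12 differed by -1.61 (log2, SE 0.21, adjusted p = 1.10e-06) and Csf1 by -0.78 (SE 0.13, adjusted p = 2.72e-05). With no filter on low counts 5 members were lower, with Ccl7, Ccl2 and Cxcl1 added, and 1 was higher, Il33 (1.26, adjusted p = 0.0481). Ccl7 was also lower in a fit of only the libraries compared (adjusted p = 0.0233). With VC the change at day 4 differed in 5 members, 4 lower and 1 higher, where 15.5% and 13.9% of genes did so. Cxcl12 differed by -2.78 (SE 0.22, adjusted p = 5.92e-12), Cxcl1 by -2.42 (SE 0.53, adjusted p = 0.000615), Csf1 by -1.63 (SE 0.13, adjusted p = 5.30e-12) and Cxcl5 by -1.25 (SE 0.35, adjusted p = 0.00653), while Gdf15 differed by 1.79 (SE 0.46, adjusted p = 0.00298). Ccl2 also passed as lower without D/KO day 0 plus VC replicate 2 (adjusted p = 0.0470) or WT day 0 plus VC replicate 1 (0.0382), and Cxcl2 without either of these (0.0387 and 0.0334) or D/KO day 4 plus VC replicate 3 (0.0136). These differences with VC share their day 0 libraries with the contrast of VC alone, and for Cxcl1 and Cxcl5 their direction depends on that baseline. Against day 0 without VC, the log2 change to day 4 plus VC was -0.65 in D/KO and -1.20 in WT for Cxcl1, and -0.78 and -1.68 for Cxcl5, so that the larger fitted fall was in WT, and the difference between lines was not tested with this baseline.

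In the second table, inhibitors of the TGFb receptor kinase ALK5 moved Cxcl12 and Gdf15 up and Cxcl1, Cxcl5, Ccl7 and Il33 down in D/KO cells. Repsox inhibits ALK5, Vactosertib is described by the study as inhibiting both ALK5 and ALK2, A83-01 inhibits ALK5 with the related ALK4 and ALK7, and DMH-1 inhibits the BMP receptor ALK2. The inhibitors share the same 3 untreated D/KO libraries. With Repsox 2 members rose and 4 fell, where 13.4% of the 15164 genes tested rose and 11.8% fell. With Vactosertib 2 rose and 4 fell, where 11.8% and 10.3% of genes did so. With A83-01 3 rose and 4 fell, where 16.4% and 16.2% did so, and with DMH-1 1 rose and 2 fell, where 5.96% and 3.79% did so. With DMH-1 the count depends on the fit, since DESeq2 called 7 members and a fit of the 6 libraries compared also called 7. The shares of genes above belong to the edgeR fit of 18 libraries. Those of the other fits are not given here, so their counts cannot be set against a share.

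Cxcl12 was at 184, 209.9 and 215 CPM in untreated D/KO cells. It was at 662, 642 and 717 CPM with Repsox, at 619.6, 596 and 601 CPM with Vactosertib, at 704, 787 and 762 CPM with A83-01 and at 347, 335 and 383 CPM with DMH-1. No treated library overlapped the controls, and beside untreated WT cells, at 641, 657 and 650.2 CPM, the A83-01 libraries were higher, the Vactosertib libraries lower and the Repsox libraries overlapping. The rise was 3.31-fold with Repsox (log2 change 1.73, SE 0.09, adjusted p = 4.32e-10), 3.00-fold with Vactosertib (1.58, SE 0.09, adjusted p = 1.55e-09), 3.69-fold with A83-01 (1.89, SE 0.09, adjusted p = 8.44e-11) and 1.75-fold with DMH-1 (0.81, SE 0.09, adjusted p = 9.37e-06).

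Cxcl5 was at 313, 315 and 270.1 CPM in untreated D/KO cells, at 79.2, 114 and 97.2 CPM with Repsox, at 102, 107 and 148 CPM with Vactosertib, at 68.4, 73.5 and 77.7 CPM with A83-01 and at 182, 197 and 219 CPM with DMH-1. All treated libraries lay below all controls. The fall was 3.09-fold with Repsox (adjusted p = 1.35e-06), 2.50-fold with Vactosertib (adjusted p = 1.54e-05), 4.10-fold with A83-01 (adjusted p = 7.38e-08) and 1.5-fold with DMH-1 (adjusted p = 0.0293). The last call was lost without D/KO control replicate 1 (adjusted p = 0.0971) or 2 (0.107) or D/KO DMH-1 replicate 1 (0.105) or 2 (0.0962), and in a fit of all 24 libraries (0.193). Cxcl1 fell with all 4 agents, from 35.9, 41.1 and 34.8 CPM to between 14.2 and 24.2 CPM, by 2.08-fold with Repsox (adjusted p = 0.00018), 2.00-fold with Vactosertib (0.000376) and 1.80-fold with DMH-1 (0.00375), and with A83-01 by a log2 change of -0.97 (0.000273). Cxcl2 had 0 to 9 counts in these libraries and was not tested.

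Ccl7 fell with the ALK5 inhibitors, while its neighbour Ccl2 was called with none of the inhibitors in the fit of 18 libraries. Ccl7 was at 325, 279.5 and 252 CPM in untreated D/KO cells, at 74.2, 145 and 80.1 CPM with Repsox, at 90.9, 80.6 and 117 CPM with Vactosertib and at 89.4, 74.1 and 83.2 CPM with A83-01, with no overlap. It fell 2.86-fold with Repsox (adjusted p = 7.10e-05), 2.95-fold with Vactosertib (adjusted p = 6.93e-05) and 3.47-fold with A83-01 (log2 change -1.80, SE 0.22, adjusted p = 8.25e-06), and the change of -0.69 with DMH-1 did not pass (adjusted p = 0.0557). That change did pass as lower by DESeq2 (adjusted p = 0.0193), with DESeq2 size factors (0.0492), with no filter on low counts (0.0109), with at least 10 counts in every library (0.0465) and in a fit of only the libraries compared (0.00458), so its call turned on the fit too. Ccl2 was at 109, 90.7 and 92.8 CPM untreated, and its log2 change was 0.20 with Repsox (95% interval -0.17 to 0.58), -0.02 with Vactosertib (-0.39 to 0.35), -0.31 with A83-01 (-0.69 to 0.06) and -0.55 with DMH-1 (-0.93 to -0.18, adjusted p = 0.0792). It passed as lower with A83-01 in a fit of only the libraries compared (-0.32, adjusted p = 0.0158), and with DMH-1 in such a fit (adjusted p = 0.0432), by DESeq2 (0.0398) and with no filter on low counts (0.0381). Whether the change of Ccl7 differed from that of Ccl2 was not tested.

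Il33 fell with the ALK5 inhibitors, to 7 counts or fewer a library with A83-01. It was at 3.70, 4.29 and 3.42 CPM in untreated D/KO cells, at 0.609, 0.518 and 0.414 CPM with Repsox, at 0.523, 0.719 and 0.366 CPM with Vactosertib and at 7, 2 and 1 counts a library with A83-01, 10 in all. No library of these groups overlapped the controls, and the DMH-1 libraries, at 5.58, 6.89 and 6.13 CPM, lay above them. Il33 fell 7.4-fold with Repsox (log2 change -2.89, SE 0.29, adjusted p = 1.21e-06), 6.87-fold with Vactosertib (-2.78, SE 0.29, adjusted p = 2.85e-06) and 29.1-fold with A83-01 (-4.86, SE 0.36, adjusted p = 2.04e-08, and -5.96 without D/KO A83-01 replicate 1), while the change of 0.71 with DMH-1 did not pass (SE 0.24, adjusted p = 0.0731) but passed as higher by DESeq2 (0.00413), with library totals (0.0480) and in a fit of only the libraries compared (0.0212).

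Gdf15 went up with the ALK5 inhibitors, from 5.20, 5.37 and 5.19 CPM to 8.65, 12.7 and 6.97 CPM with Repsox, 8.84, 9.23 and 11.7 CPM with Vactosertib and 19.8, 13.1 and 16.2 CPM with A83-01. The rise was 1.79-fold (adjusted p = 0.00935), 1.90-fold (adjusted p = 0.00594) and 3.11-fold (log2 change 1.64, SE 0.22, adjusted p = 1.97e-05). That with Repsox was 0.56 on the log2 scale without D/KO Repsox replicate 2 (adjusted p = 0.0501) and was lost in a fit of only the libraries compared (0.0619), and the DMH-1 libraries, at 6.80, 7.31 and 7.72 CPM, did not pass (log2 change 0.47, adjusted p = 0.216). Csf1 was at 823, 932 and 954 CPM untreated and at 1080.0, 1156 and 1164 CPM with A83-01, a 1.25-fold rise (adjusted p = 0.0307) that was lost in 4 of 6 fits with 1 library left out: without D/KO control replicate 1 (adjusted p = 0.131) or 2 (0.0580), or D/KO A83-01 replicate 2 (0.0781) or 3 (0.0921). It was also lost with no filter on low counts (0.0525) and in a fit of all 24 libraries (0.145). Il6 had 1 to 16 counts in the D/KO libraries and passed with no agent.

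**Figure D3:**
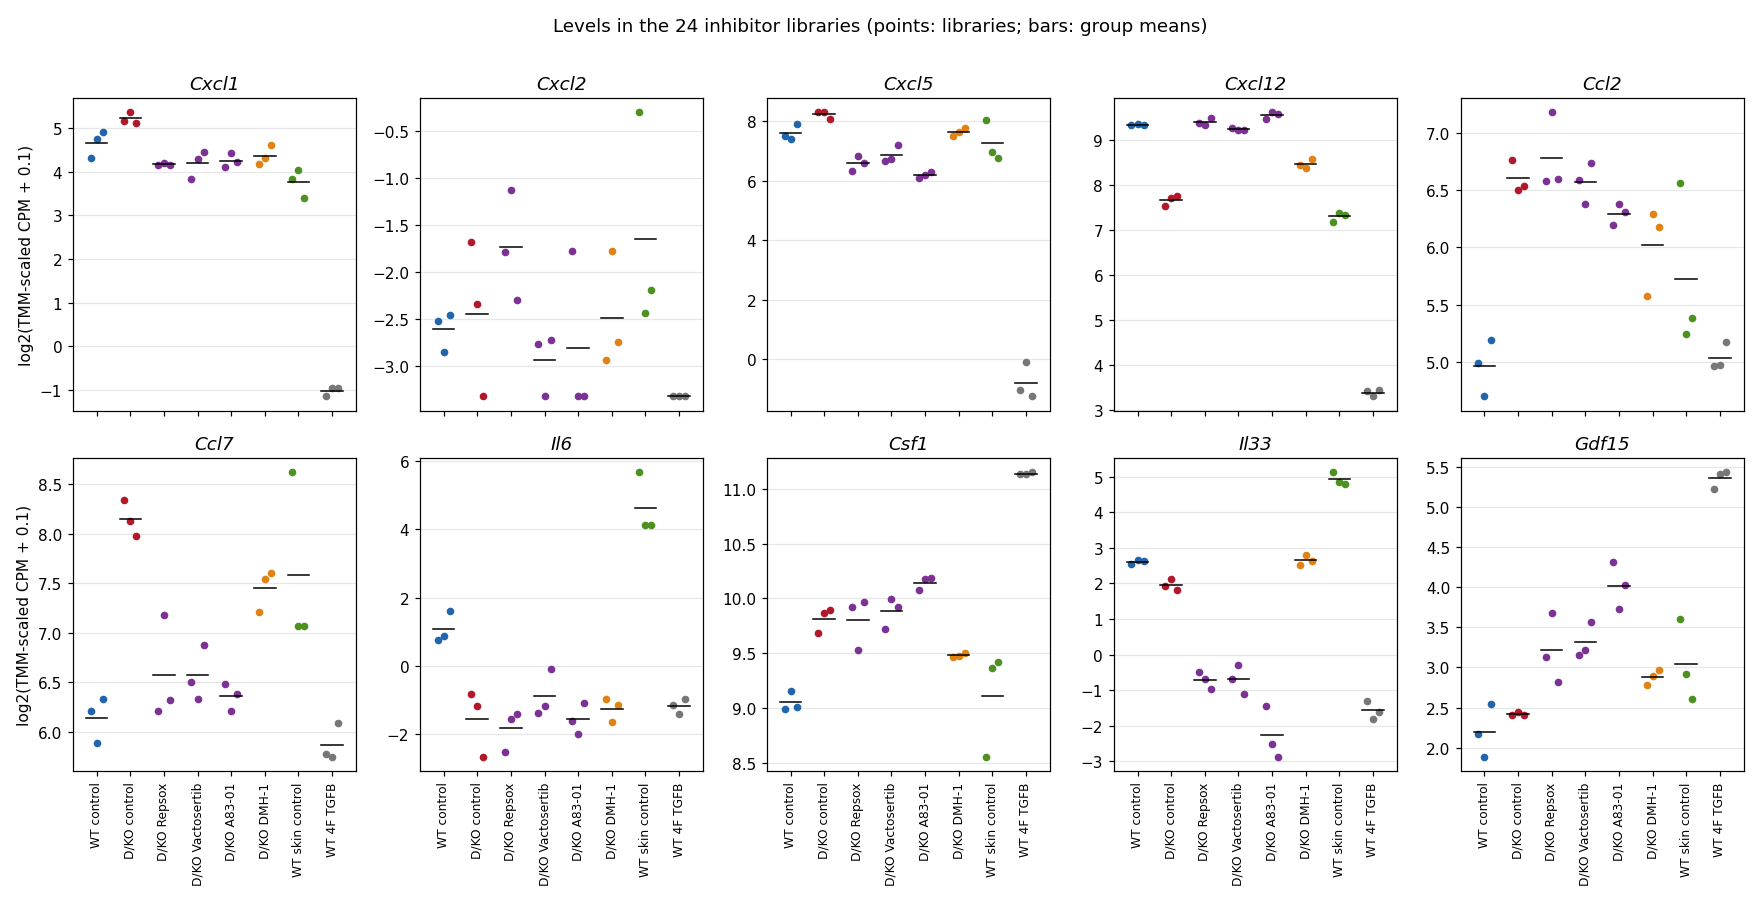
Level of each member in the 24 libraries of the inhibitor table, as log2 of TMM-scaled CPM plus 0.1, in 8 groups with a point for each library and a bar for the mean on this scale. Cxcl12 is above the D/KO control and Cxcl5 below it with all 4 inhibitors, and Il33 lies below the D/KO control with the 3 ALK5 inhibitors and above it with DMH-1.

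Compounds were compared at matched dose and time in 2 pairs. Between Repsox and Vactosertib at 0.1 µM 0 of 9 members and 0% of the 15164 genes passed in edgeR, where 452 genes had an unadjusted p under 0.05 and DESeq2 called 8. The 95% interval of the log2 difference (Repsox minus Vactosertib) was -0.02 to 0.31 for Cxcl12, -0.62 to 0.01 for Cxcl5, -0.38 to 0.47 for Ccl7, -0.79 to 0.57 for Il33 and -0.50 to 0.34 for Gdf15. Between A83-01 and DMH-1 at 1.0 µM 3 members were higher with A83-01 and 3 lower, where 11.9% and 13.4% of genes were so. Il33 was 47.4-fold lower with A83-01 (log2 difference -5.57, SE 0.35, adjusted p = 5.37e-09, and -6.66 without D/KO A83-01 replicate 1), Cxcl5 2.73-fold lower (adjusted p = 4.62e-06) and Ccl7 2.15-fold lower (adjusted p = 0.00121). Cxcl12 was 2.11-fold higher (adjusted p = 8.69e-08), Gdf15 2.24-fold (adjusted p = 0.000599) and Csf1 1.58-fold (adjusted p = 0.000249). Cxcl1 did not pass (log2 difference -0.12, 95% interval -0.45 to 0.21). The other compounds were used at different doses and were not compared.

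Untreated D/KO cells of the inhibitor table were higher than untreated WT tail tip cells in 5 members and lower in 3, where 21.3% of genes were higher and 18.9% lower. The CCR2 ligands stood out, with Ccl7 4.05-fold higher (log2 difference 2.02, SE 0.23, adjusted p = 1.74e-06) over WT libraries at 74.0, 59.1 and 80.6 CPM, and Ccl2 3.14-fold higher (1.65, SE 0.20, adjusted p = 3.35e-06) over 31.6, 25.8 and 36.5 CPM. Csf1 was 1.72-fold higher (adjusted p = 2.51e-05), Cxcl5 1.55-fold (adjusted p = 0.0049) and Cxcl1 1.48-fold (adjusted p = 0.0135). Cxcl12 was 3.17-fold lower (log2 difference -1.66, SE 0.09, adjusted p = 1.87e-10). Il6 was 6.73-fold lower (-2.75, SE 0.55, adjusted p = 0.000672), with 11, 7 and 1 counts against 43, 45 and 71. Il33 was 1.56-fold lower (adjusted p = 0.0414), a call lost with any library of either group left out (adjusted p = 0.0574 to 0.128), and that of Cxcl1 was lost without D/KO control replicate 2 (0.0627) or WT control replicate 1 (0.0780). That of Cxcl5 was lost in a fit of all 24 libraries (log2 difference 0.62, adjusted p = 0.0622), and that of Il33 also with library totals (0.0569) and with no filter on low counts (0.0651). Endothelial markers summed to 309.7 to 344 CPM in these D/KO libraries and 75.0 to 92.2 CPM in WT, and keratinocyte markers to 2.05 to 3.60 CPM and 14.7 to 17.6 CPM. Cxcl12 and Il33 were lower in D/KO in both tables. Cxcl1, Cxcl5 and Csf1 were lower in D/KO in the reprogramming table and higher in the inhibitor table, and the mice of the tables differ in age and transgene and, for D/KO, in sex.

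WT skin fibroblasts were higher than WT tail tip fibroblasts in 5 members and lower in 2, where 18.1% of the 15652 genes tested were higher and 16.1% lower. Il6 was at 50.9, 17.2 and 17.3 CPM in skin and at 1.60, 1.74 and 2.92 CPM in tail tip, a 13.6-fold difference (log2 3.77, SE 0.43, adjusted p = 7.06e-07). Il33 was at 34.8, 28.9 and 27.6 CPM against 5.70, 6.16 and 6.10 CPM, 5.08-fold higher (2.35, SE 0.21, adjusted p = 2.67e-08). Both were high in all 3 skin libraries. Cxcl12, at 145, 167 and 162 CPM, was 4.11-fold lower (-2.04, SE 0.09, adjusted p = 1.14e-12), and Cxcl1 1.87-fold lower (adjusted p = 0.000455). Ccl7 was 3.10-fold higher (adjusted p = 0.000432), from 394, 134 and 134 CPM. Skin replicate 1 was the highest library for Il6, Il33, Ccl2, Ccl7, Cxcl2, Cxcl5 and Gdf15 within its group, and without it the log2 difference was 3.05 for Il6, 0.91 for Ccl7, 0.34 for Ccl2 (adjusted p = 0.185 in place of 0.012) and 0.56 for Gdf15 (adjusted p = 0.0612 in place of 0.00625). Without it Cxcl5 passed as lower (-0.74, adjusted p = 0.00388) and Csf1 as higher (0.34, adjusted p = 0.0212), which gave 4 members higher and 3 lower. Ccl2 was also lost without WT control replicate 2 (adjusted p = 0.0586), and in a fit of only the libraries compared both Ccl2 (0.142) and Gdf15 (0.0919) were lost. Endothelial markers summed to 182 to 248 CPM in skin and 75.0 to 92.2 CPM in tail tip, skeletal muscle markers to 108 to 143 CPM and 16.1 to 21.3 CPM, and keratinocyte markers to 3.09 to 4.29 CPM and 14.7 to 17.6 CPM.

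The group labelled WT 4F TGFB had no untreated match in its table, and its levels are given alone. It had the lowest Cxcl12, at 10.5, 9.73 and 10.8 CPM, the lowest Cxcl5, at 0.395, 0.830 and 0.321 CPM, and the lowest Cxcl1, at 0.351, 0.415 and 0.413 CPM, of the 8 groups. It had the highest Csf1, at 2246, 2252 and 2276 CPM, and the highest Gdf15, at 37.4, 42.5 and 43.0 CPM. None of these 5 genes overlapped any other group of that table. Skeletal muscle markers summed to 1711 to 2063 CPM in these libraries, mostly Acta1, against 11.5 to 143 CPM in the other groups.

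**Figure D4:**
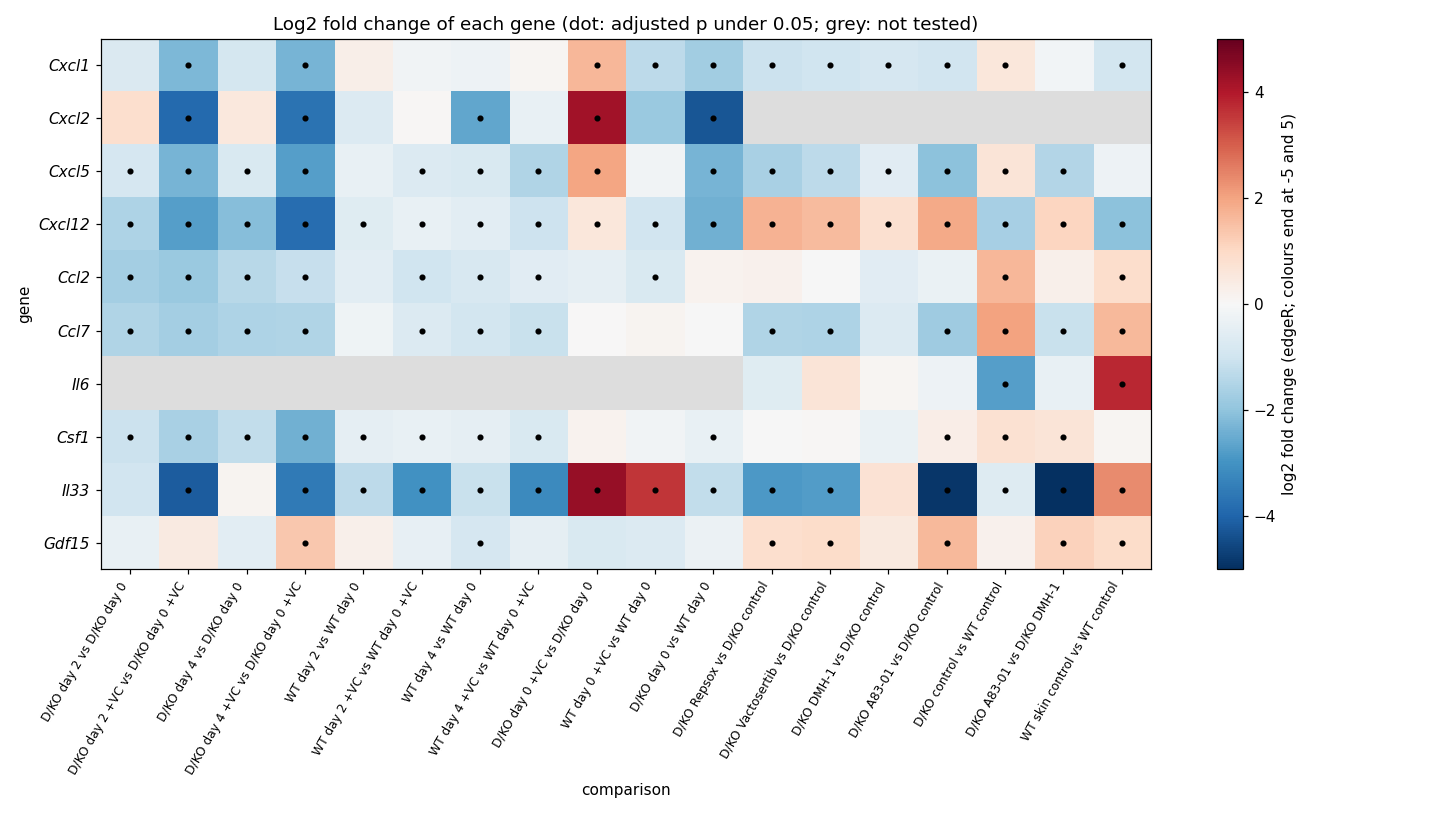
Log2 fold change of each member (rows) in 18 comparisons of groups (columns) by edgeR, in red for higher and blue for lower in the first group named, with a dot where the adjusted p was under 0.05 and grey where the gene was not tested. Cxcl12 is blue in all 8 doxycycline columns and red in the 4 inhibitor columns, and Il33 is red with VC alone in both lines.

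Other genes of the pathway were read from lists. Of 33 other cytokines and chemokines, 22 were tested in each fit, and at D/KO day 4 plus VC, where 27.9% of all genes rose and 26.2% fell, 2 of the cytokines rose and 10 fell, among them Il1rn, the interleukin 1 receptor antagonist (log2 change 5.77), and Cxcl3 (-3.37), a CXCR2 ligand that lies between Cxcl5 and Cxcl1, and the eosinophil chemokine Ccl11 (-2.51). Of the members' receptors 9 of 14 were tested, and 3 rose and 5 fell, with Ret, the partner of GFRAL, 6.75 higher, and Cxcr4 4.43 and Csf1r 3.39 lower on the log2 scale. Of 17 NF-kB and C/EBP factors and feedback genes 4 rose and 12 fell, among them Nfkbie (-1.46), Cebpb (-1.36) and Bcl3 (-1.32). Of 8 stress response genes of the ATF4 and CHOP branch 1 rose and 5 fell, among them Chac1 (-2.34), Trib3 (-1.84) and Ddit3 (-1.26). Of 8 cell cycle arrest and senescence genes 3 rose and 4 fell, with the proliferation marker Mki67 (2.31) and the lamin Lmnb1 (1.51) higher and the arrest gene Cdkn2b (-1.48) lower.

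With A83-01 in D/KO cells, where 16.4% of all genes rose and 16.2% fell, 4 of the 22 other cytokines tested rose and 9 fell, with Tslp higher (2.64) and Cxcl3 (-3.86) and Tnfsf11 (-3.60) lower. Of the receptors 1 rose and 3 fell, with the CXCL12 receptors moving apart, Cxcr4 lower (-5.62) and Ackr3 higher (0.56), and Ret lower (-2.47). Of the NF-kB and C/EBP genes 6 rose and 2 fell, with the mRNA decay factor Zfp36 (1.65) and the NF-kB inhibitor Tnfaip3 (1.43) higher and Bcl3 lower (-1.54). Of the ATF4 and CHOP branch 1 rose and 4 fell, among them Trib3 (-1.53), Asns (-0.89) and Chac1 (-0.73). Of the arrest and senescence genes 3 rose and 2 fell, with Cdkn2b higher (0.93) and Mki67 (-1.94) and Lmnb1 (-0.90) lower. Of the 8 fibroblast markers 1 rose and 5 fell with A83-01, 1 rose and 4 fell with Repsox and with Vactosertib, and 2 rose and 1 fell with DMH-1. Their sum was 72139.7 to 78368 CPM in untreated D/KO cells, 31895 to 41519 CPM with Repsox, 42079 to 45674 CPM with Vactosertib, 62032 to 79973 CPM with DMH-1 and 35749 to 37976 CPM with A83-01. Of 4 melanocyte and Schwann cell markers tested, 4 rose with A83-01, 3 with Repsox, 2 with Vactosertib and 1 with DMH-1. Their sum was 8.09 to 10.8 CPM untreated, 33.2 to 40.8 CPM with A83-01, 18.7 to 20.6 CPM with Repsox, 15.5 to 19.4 CPM with Vactosertib and 12.8 to 16.4 CPM with DMH-1. Of 6 endothelial markers 1 rose and 4 fell with A83-01, where they summed to 150.3 to 191 CPM against 309.7 to 344 CPM untreated.

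Across the 36 reprogramming libraries the members most alike in log2 CPM were Cxcl12 and Csf1 (Pearson r = 0.926), Cxcl5 and Cxcl12 (0.895) and Cxcl1 and Cxcl5 (0.870), with the neighbours Ccl2 and Ccl7 at 0.783. Gdf15 had r from -0.253 to 0.269 with the other members, and Il33 from 0.164 to 0.530 with the rest. The 24 inhibitor libraries differed, with r = -0.623 for Cxcl12 and Csf1 and -0.865 (Cxcl5) to 0.785 (Csf1) for Gdf15. There Cxcl5 and Cxcl12 had 0.824, Cxcl1 and Cxcl5 0.977, and Ccl2 and Ccl7 0.524. Of all genes tested, over the 36 reprogramming libraries and by Pearson r, Pdgfd (r = 0.981) and Ptpdc1 (0.973) were most like Cxcl12. Matn2 (0.974) and Osr1 (0.970) were most like Csf1, Vegfd (0.948) and Ltbp1 (0.947) most like Cxcl5, and Chaserr (0.893) and Clec2d (0.886) most like Cxcl1. Artn (0.930) and Sgk1 (0.918) were most like Ccl7, Qpct (0.891) and Spcs3 (0.869) most like Ccl2, and Twsg1 (0.919) and Thbs2 (0.914) most like Il33. The closest to Cxcl2 were Ostm1 (0.763) and Uxs1 (0.749), and to Gdf15 Zcrb1 (0.727) and Erlin1 (0.720). The genes named depend on the measure. By Spearman correlation Ddx4 and Tgfbr3 came first for Cxcl12, B3glct and Sema3a for Csf1, and Rel and C2 for Il33. Qpct and Spcs3 stayed for Ccl2. These values describe libraries that share lines and treatments, and carry no test.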

How the data were processed

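RNA of 60 mouse fibroblast libraries was read as gene counts. Per the labels and the study's methods, the authors sequenced polyA RNA in paired ends, trimmed reads with Trim Galore, aligned them to GRCm39 with HISAT2 and deposited raw counts per gene from featureCounts (versions and strand setting not given in the sources used here). Identifiers were paired with symbols from GENCODE M39 (56236 of 56980 found). Groups came from the labels, and inhibitor doses from a figure legend of the study on a methylation assay of these agents. Genes passing edgeR's filterByExpr (minimum count 10, minimum total 15) were scaled by TMM and tested with edgeR 4.0.16's quasi-likelihood test in R 4.3.3, in fits of 36 reprogramming libraries (15832 genes), 18 tail tip inhibitor libraries (15164) and, for skin, all 24 (15652). The study used DESeq2, which is an alternative here (1.42.0). Calls had a Benjamini-Hochberg adjusted p under 0.05 over all genes tested. Levels are CPM on TMM-scaled totals, and the SE is the log2 change over the root of F. The 95% intervals use this SE with a normal quantile, so they are narrower than the F-test itself would give. The precision is set by 3 libraries a group and 16538374 to 30599138 counts a library. Other settings changed the scaling, the filter, the tool, the libraries fitted, the baseline, or left out 1 library. The procedure was tested on simulated data. No pair of replicates agreed within sampling noise. All 10 members are named, from each other list at most 3 called genes of largest change at D/KO day 4 plus VC and with A83-01, and for each member the 2 genes most alike over the reprogramming libraries. The members and lists were chosen with earlier results of these data known.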

Additional observations from a re-analysis of the deposited data

Results flagged for a closer look

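The change at day 4 of doxycycline differed between D/KO and WT cells in an interaction test for several members. Without VC the D/KO minus WT difference in log2 change was -1.61 for Cxcl12 and -0.78 for Csf1. With VC it was -2.78 for Cxcl12, -2.42 for Cxcl1, -1.63 for Csf1, -1.25 for Cxcl5 and 1.79 for Gdf15. The change with VC alone at day 0 also differed between the lines, by 2.97 for Cxcl1, 2.14 for Cxcl5 and 1.52 for Cxcl12. For Cxcl2 the fitted difference was 6.05, a value that depends on the prior count because D/KO day 0 held 0 to 2 counts a library. The day 4 differences with VC and those with VC alone share the 6 libraries of day 0 plus VC. Against day 0 without VC, the log2 change to day 4 plus VC was -0.65 in D/KO and -1.20 in WT for Cxcl1, and -0.78 and -1.68 for Cxcl5, which is the opposite order of the lines, and that difference was not tested. The lines also differ in sex, age and mouse line, which cannot be told apart from genotype.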

How the results depend on the processing

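Day 0 without VC was tried as the baseline of the groups with VC. It left 4 members called at D/KO day 2 plus VC, where 23.4% of genes were lower and 23.3% higher, and 5 at D/KO day 4 plus VC. In WT this baseline took the count from 6 to 7 at day 2 plus VC, where 17.8% were lower and 19.5% higher, and from 6 to 8 at day 4 plus VC. It reversed Il33 at D/KO day 2 plus VC (0.22), D/KO day 4 plus VC (0.82), WT day 2 plus VC (0.57) and WT day 4 plus VC (0.41), and Cxcl2 at D/KO day 2 plus VC (0.31) and day 4 plus VC (0.51), on the log2 scale. For the settings that follow, the share of all genes called is not given, so the counts show only how calls of members moved. No filter on low counts gave 5 members at WT day 2, 6 for the D/KO minus WT difference at day 4 and 5 with DMH-1. Library totals gave 3 at WT day 2 plus VC and 7 with VC alone in WT, and moved the median of all genes by up to 0.38 on the log2 scale. At least 10 counts in every library gave 3 with VC alone in D/KO and 4 for skin against tail tip, because Cxcl2 and Il33 in the first, and Cxcl1, Il6 and Il33 in the other, left the test. DESeq2 and a fit of only the libraries compared each called 7 with DMH-1. With 1 library left out, members called ranged from 1 to 3 at WT day 2, from 3 to 5 at WT day 2 plus VC, from 5 to 5 at WT day 4 and from 2 to 5 with VC alone in WT, where a fit leaving an arm of 2 libraries pools the spread of all groups. No paired analysis was possible because the replicate numbers follow accession order and pair no samples. Cxcl2 and Il6 are limited by depth, at 0 to 39 and 0 to 12 counts a reprogramming library.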
